A study of Mus musculus with 3 samples.

Results

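The Ikaros family of zinc finger transcription factors was examined in CD4-positive effector memory T cells. Its 5 members are Ikzf1 (Ikaros), Ikzf2 (Helios), Ikzf3 (Aiolos), Ikzf4 (Eos) and Ikzf5 (Pegasus). They were taken by gene symbol and matched by identifier, and they are 5 of the 55536 genes in the deposited gene tables. The cells carry an alpha-beta T cell receptor and came from 1 male C57BL/6J mouse, an adult of 7 months, with no treatment named in the labels. Polyadenylated RNA was sequenced in 3 libraries, labelled technical replicates 1, 2 and 3 of biological replicate 1, which form 1 group. There is no second condition to compare. Levels are TPM, a share of transcripts corrected for transcript length, and errors are the SD over n = 3 libraries. That SD covers library preparation and counting, not differences between mice.

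Ikaros family proteins carry a cluster of zinc fingers near the N terminus that binds DNA and a pair at the C terminus through which members join into homodimers and heterodimers. A form that keeps the C-terminal pair but has lost most N-terminal fingers can still pair with a full-length protein without binding DNA well, and such short forms of Ikaros are known as dominant negatives. Ikaros is required for lymphocyte development and Aiolos is prominent in maturing B and T cells. Helios and Eos are best known from regulatory T cells, and Pegasus is the most divergent member.

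All positions are on GRCm38/mm10 with the GENCODE M21 annotation. Ikzf1 (ENSMUSG00000018654.17) lies at chr11:11685003-11772926 on the plus strand. The others lie on the minus strand: Ikzf2 (ENSMUSG00000025997.13) at chr1:69531214-69687245, Ikzf3 (ENSMUSG00000018168.8) at chr11:98464902-98546031, Ikzf4 (ENSMUSG00000002578.17) at chr10:128630843-128645991 and Ikzf5 (ENSMUSG00000040167.16) at chr7:131388652-131410521. In Ikzf1, Ikzf2, Ikzf3 and Ikzf4, fingers 2 and 3, the core of the DNA-binding cluster, sit together in 1 coding exon of 168 bases. In Ikzf5, by contrast, fingers 2 to 5 share the last exon. Finger 1 has a coding exon of its own in every member. The exons of 168 bases are shown because they hold the finger that 4 of the members share residue for residue. Another reason is that the forms of each gene are sorted by the fingers they keep. For Ikzf5 the finger 1 exon is shown. Bases are written 5′ to 3′ on the strand of the gene, and capitals mark the codons of the cysteines and histidines that hold the zinc ion.
Ikzf1 fingers 2 and 3, chr11:11754007-11754174, plus strand: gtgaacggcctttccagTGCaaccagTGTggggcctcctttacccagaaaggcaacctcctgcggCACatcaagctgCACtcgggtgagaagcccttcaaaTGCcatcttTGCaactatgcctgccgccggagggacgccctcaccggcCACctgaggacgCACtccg
Ikzf2 fingers 2 and 3, chr1:69570493-69570660, minus strand: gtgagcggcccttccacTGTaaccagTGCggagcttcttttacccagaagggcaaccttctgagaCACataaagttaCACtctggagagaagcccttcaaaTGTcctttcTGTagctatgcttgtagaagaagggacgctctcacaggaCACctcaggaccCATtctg
Ikzf3 fingers 2 and 3, chr11:98488852-98489019, minus strand: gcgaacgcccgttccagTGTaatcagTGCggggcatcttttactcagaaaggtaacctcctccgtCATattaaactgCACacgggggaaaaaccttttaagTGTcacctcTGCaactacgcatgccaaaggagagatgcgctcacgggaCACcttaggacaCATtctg
Ikzf4 fingers 2 and 3, chr10:128640141-128640308, minus strand: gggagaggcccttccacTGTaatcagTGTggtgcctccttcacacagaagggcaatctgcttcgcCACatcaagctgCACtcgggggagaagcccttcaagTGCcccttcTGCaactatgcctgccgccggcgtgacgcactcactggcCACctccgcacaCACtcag
Ikzf5 finger 1, chr7:131393755-131393937, minus strand: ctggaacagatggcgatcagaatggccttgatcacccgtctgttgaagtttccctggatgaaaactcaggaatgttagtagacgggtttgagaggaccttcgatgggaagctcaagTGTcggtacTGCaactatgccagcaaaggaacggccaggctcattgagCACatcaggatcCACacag

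Across the 168 bases, Ikzf1 and Ikzf4 were the closest pair, with 138 identical bases (82.1%). Ikzf3 was the furthest from Ikzf2 and from Ikzf4, with 123 identical bases (73.2%) in each case. Finger 2, translated, was identical in all 21 residues among Ikzf1, Ikzf2, Ikzf3 and Ikzf4. Finger 5 was identical between Ikzf1 and Ikzf2, and finger 1 between Ikzf2 and Ikzf4. The fingers of Ikzf5 stood apart: none shared more than 14 residues with any finger of Ikzf1.

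Each coding sequence was searched for the spacing C-x2-C-x12-H with a second histidine 3 to 5 residues further on. The forms with the most fingers had 6 in Ikzf1, Ikzf2 and Ikzf4, and 5 in Ikzf3 and Ikzf5. In Ikzf3 the place of the fourth N-terminal finger held 1 match to C-x2-C-x12-H-x3-C, where a cysteine takes the place of the last histidine, so this position was not counted. The 5 genes have 34 annotated transcripts, of which 23 are protein coding. Of these, 17 have a complete coding sequence, 8 with all fingers of their gene and 9 with fewer. Another 11 transcripts are annotated as not protein coding or as targets of nonsense-mediated decay, and 9 of the 34 transcripts had 0 counts in all 3 libraries.

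**Figure D1:**
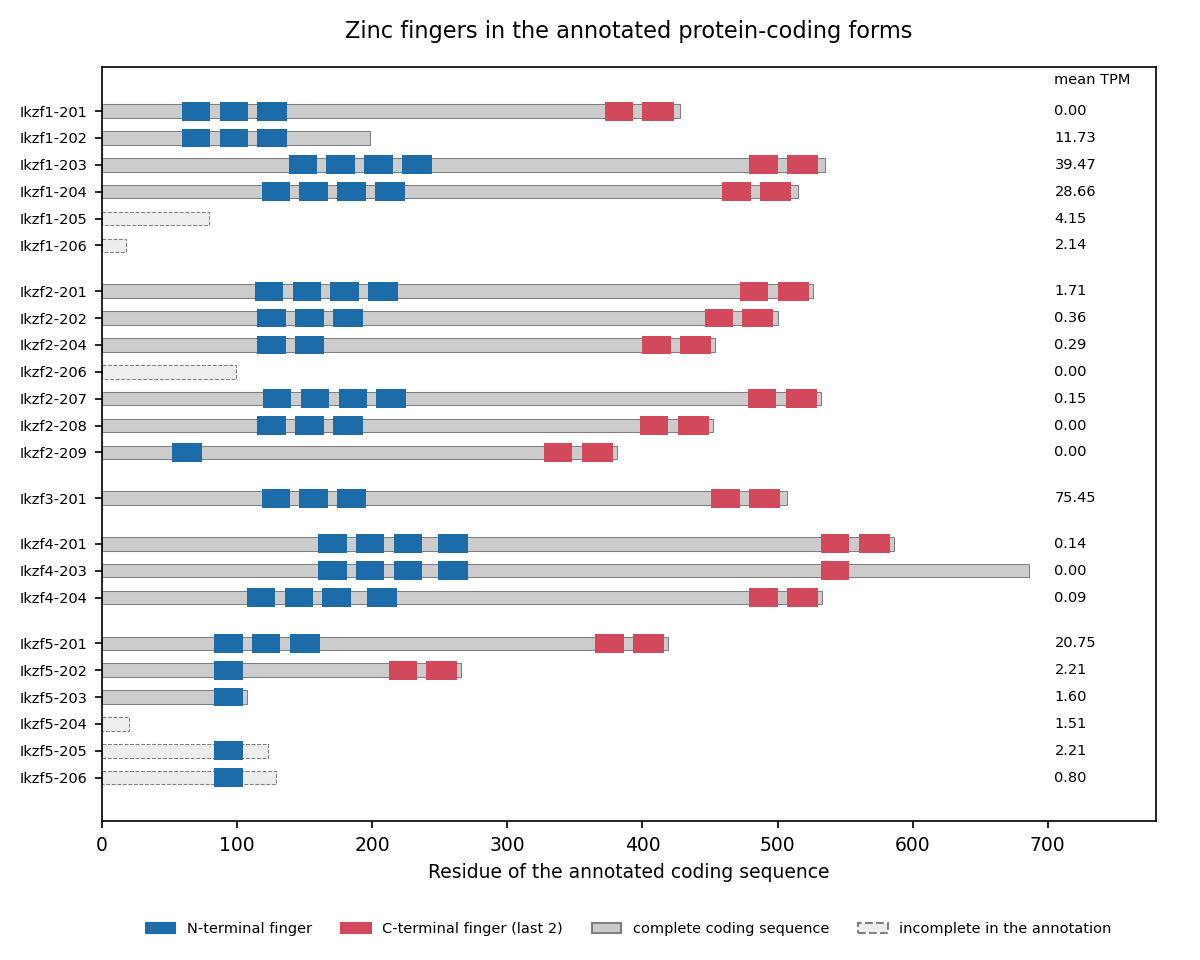
Zinc fingers along the annotated coding sequence of the 23 protein-coding forms of the 5 genes, drawn to scale in residues, with the mean TPM of each form over 3 libraries at the right. Fingers of the N-terminal cluster are blue and the last pair is red; Ikzf3-201, at 75.45 TPM, and Ikzf1-203, at 39.47 TPM, are the most abundant forms and both carry all fingers of their gene.

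Estimated counts over genes summed to between 14152590 and 16251564 per library. The label of the cells was checked against marker genes. All 10 markers of CD4 alpha-beta T cells, among them Cd4 at 476 ± 4.74 TPM, and all 6 effector memory markers were at 100 TPM or more. None of the 6 B cell markers, whose summed level was 0.99 to 2.00 TPM per library, and none of the 4 myeloid markers reached 1 TPM. Of the CD8 T cell markers, Cd8a was at 0.0433 ± 0.0153 TPM and Cd8b1 at 3.31, 4.10 and 5.08 TPM (4.16 ± 0.887 TPM), near the Ikzf2 level, and their part in the family's levels was not tested. Foxp3, which defines regulatory T cells, had 0, 0.23 and 0 TPM in libraries 1, 2 and 3, from 3 counts in all, while Ctla4 (114 ± 6.42 TPM), Nrp1 (37.8 ± 3.73 TPM) and Il2ra (22.0 ± 0.643 TPM), which other T cells also express, were present. The regulatory T cell list of 6 genes, which includes Ikzf2 and Ikzf4, summed to 176.33 to 182.27 TPM with 4 genes at 1 TPM or more, and its part in the levels of Ikzf2 and Ikzf4 was not tested.

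Aiolos and Ikaros were the abundant members of the family, Pegasus was intermediate, and Helios and Eos were low. Ikzf3 was at 106.15, 114.78 and 115.88 TPM in libraries 1, 2 and 3 (112 ± 5.33 TPM), and Ikzf1 at 88.22, 84.09 and 86.11 TPM (86.1 ± 2.07 TPM). These levels placed Ikzf3 above 93.1% and Ikzf1 above 91.0% of the 22028 protein-coding genes, and the values of the 2 genes did not overlap. In RNA from many cells, a lower level per cell and fewer cells with the transcript cannot be told apart. Together the 5 genes gave 223.64, 239.35 and 241.11 TPM, of which Ikzf3 took 47.8% ± 0.318 and Ikzf1 36.8% ± 2.34.

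Ikzf5 was at 24.53, 34.36 and 32.84 TPM (30.6 ± 5.29 TPM), lowest in library 1, and took 13.0% ± 1.78 of the family. Ikzf2 was at 3.72, 5.80 and 5.77 TPM (5.10 ± 1.19 TPM), also lowest in library 1, from 198, 215 and 192.61 estimated counts. As CPM (counts scaled to library size, with no length correction) Ikzf2 was at 12.2, 14.5 and 13.6, again lowest in library 1 but within a narrower range. Ikzf4 was at 1.02, 0.32 and 0.51 TPM (0.617 ± 0.362 TPM), from only 32, 12 and 18 counts. Library 1 was the highest for Ikzf4, and this gene reached 1 TPM in that library alone.

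**Figure D2:**
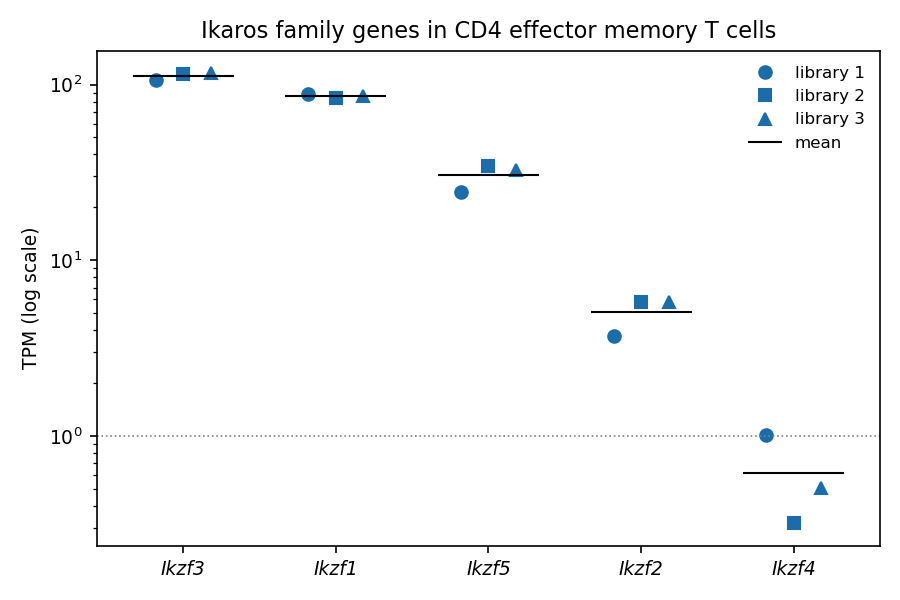
TPM on a log axis for the 5 genes, with 1 symbol per library (n = 3) and the mean as a line. Libraries of neighbouring genes do not overlap, from Ikzf3 at 106.15 to 115.88 TPM down to Ikzf4 at 0.32 to 1.02 TPM.

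Neighbours in this order did not overlap over the libraries. Ikzf3 exceeded Ikzf1 by 1.20, 1.36 and 1.35 times in libraries 1, 2 and 3 (1.30 ± 0.0883), Ikzf1 exceeded Ikzf5 by 2.89 ± 0.619 times, and Ikzf5 exceeded Ikzf2 by 6.07 ± 0.469 times. Ikzf2 exceeded Ikzf4 by 3.65, 18.1 and 11.3 times, a ratio that the few Ikzf4 counts leave imprecise, and the deposited TPM intervals of these 2 genes overlapped. With 3 libraries from 1 mouse, no test of the order was made. On the scale of the deposited posterior mean TPM, Ikzf4 was at 2.30, 1.57 and 1.73 TPM (1.87 ± 0.384 TPM). The deposited intervals of Ikzf4 lie around these values, and its TPM lay below them in every library. Posterior means also give shares to transcripts without reads: Ikzf4-202, Ikzf4-205 and Ikzf4-207, each with 0 counts, took 17.2%, 17.2% and 16.6% of the gene. Whether Ikzf4 reached 1 TPM in libraries 2 and 3 therefore depends on the scale.

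The order of Ikzf3 and Ikzf1 rested on the correction for length. Ikzf1 drew 3544, 2860 and 3053 estimated counts and Ikzf3 3138, 2873 and 2733, so the count ratio of Ikzf3 to Ikzf1 was 0.885, 1.00 and 0.895. In the second deposited gene table, whose whole-number counts come from a separate alignment, the ratio was 0.823, 0.882 and 0.866. Restricted to coding forms with all fingers, Ikzf3 was at 74.73, 79.19 and 72.43 TPM and Ikzf1 at 71.15, 63.78 and 69.45 TPM. These values still did not overlap, but the ratio was 1.05, 1.24 and 1.04 (1.11 ± 0.113). Of the Ikzf3 level, 36.8 ± 6.11 TPM of Ikzf3 was assigned to transcripts annotated as not coding.

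Among transcripts, the forms with every finger of their gene took most of the TPM of Ikzf1, Ikzf3 and Ikzf5 in every library. They took 79.0% ± 2.78 in Ikzf1, 67.3% ± 4.21 in Ikzf3 and 69.1% ± 12.6 in Ikzf5, against 37.9% ± 8.30 in Ikzf2 and 39.0% ± 9.60 in Ikzf4. Measured as a share of estimated counts instead, the same forms took 96.4% ± 0.950, 85.9% ± 1.98 and 89.2% ± 7.00 in Ikzf1, Ikzf3 and Ikzf5, 73.7% ± 6.87 in Ikzf2 and 45.2% ± 13.0 in Ikzf4. The scales differ because TPM divides by length: a short transcript needs few reads to reach a given TPM, so a short form weighs more in TPM than in counts.

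**Figure D3:**
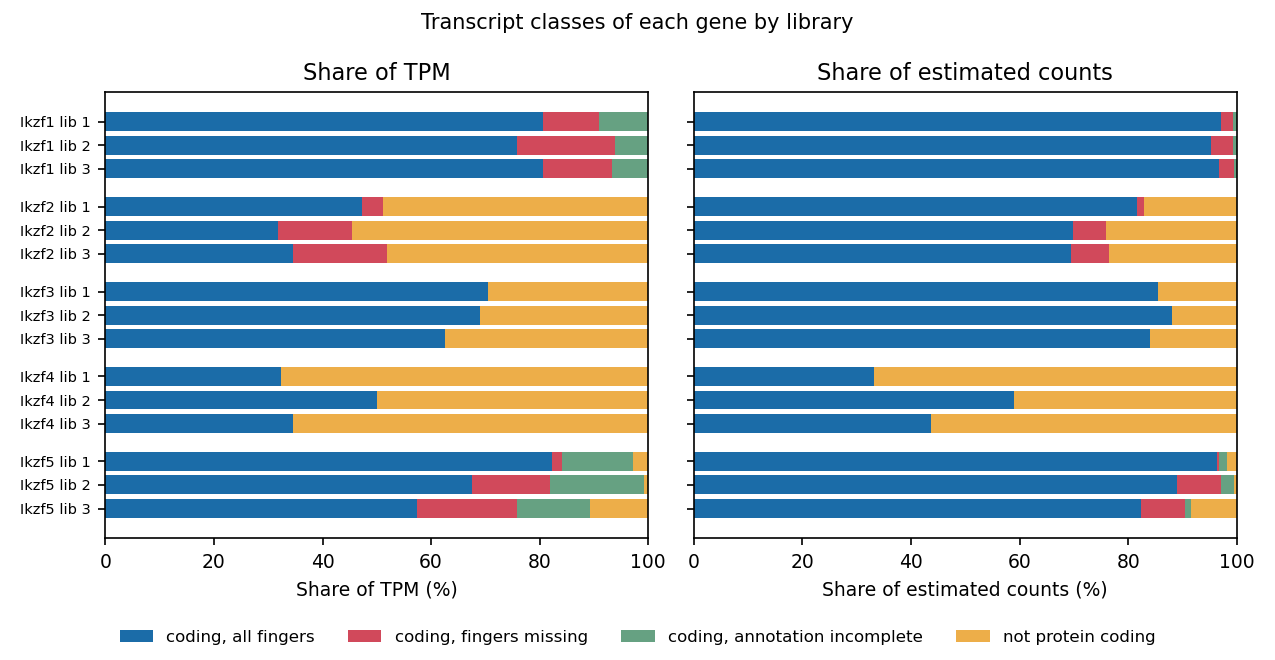
Share of each gene's TPM (left) and of its estimated counts (right), in percent, by class of transcript in each of the 3 libraries. Forms with all fingers (blue) take 80.7%, 75.8% and 80.7% of Ikzf1 TPM but 97.1%, 95.3% and 96.8% of its counts, and transcripts annotated as not coding (yellow) take 48.9%, 54.6% and 48.2% of Ikzf2 TPM.

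Ikzf1 was carried by a pair of full-finger forms. Ikzf1-203, of 535 residues, was at 38.95, 38.64 and 40.82 TPM, or 44.2%, 45.9% and 47.4% of the gene. Ikzf1-204, of 515 residues, was at 32.20, 25.14 and 28.63 TPM, or 36.5%, 29.9% and 33.2%. Ikzf1-203 was the higher in all 3 libraries and made up 54.7%, 60.6% and 58.8% of their sum. In the coding sequence the forms differ by an exon of 60 bases that lies before the first finger exon, at chr11:11740950-11741009 on the plus strand. It is shown in capitals with 20 bases on each side, beside the junction that Ikzf1-204 forms without it, because reads across these letters are what can tell the coding parts of both forms apart.
Ikzf1-203 with the exon: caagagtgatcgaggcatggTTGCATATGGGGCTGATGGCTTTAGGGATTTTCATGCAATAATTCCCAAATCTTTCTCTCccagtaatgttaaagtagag
Ikzf1-204 without it: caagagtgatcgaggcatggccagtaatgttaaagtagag

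Few positions separate these forms: of the 4648 windows of 50 bases in Ikzf1-203, 397 (8.54%) occur in no other annotated transcript on either strand, and in Ikzf1-204 863 of 5114 (16.9%). The forms also differ at their ends, outside the coding sequence. Ikzf1-203 starts further upstream, and 814 bases at the 3′ end of Ikzf1-204 lie outside the exons of Ikzf1-203. The deposited posterior SD of the Ikzf1-203 count, which measures the uncertainty of assigning shared reads, was 111, 91.2 and 92.4 on counts of 1802.17, 1589.04 and 1668.39. In library 1 the deposited TPM intervals of the forms overlapped, at 29.6 to 38.5 TPM for Ikzf1-203 and 23.4 to 31.2 TPM for Ikzf1-204. In libraries 2 and 3 they did not. The TPM of each form lay above the upper bound of its own interval in all 3 libraries. For Ikzf1-203 it was 38.64 TPM against 37.0 in library 2 and 40.82 against 38.2 in library 3. The intervals therefore do not give the uncertainty of the TPM printed above.

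Short forms of Ikzf1 were a sizeable part of its TPM and a small part of its reads. Ikzf1-202, of 198 residues, keeps fingers 2, 3 and 4 but lacks finger 1 and both C-terminal fingers, so it does not have the structure of the dominant-negative forms. It was at 9.10, 15.15 and 10.95 TPM, or 10.3%, 18.0% and 12.7% of the gene, and highest in library 2. The same form took 2.20%, 4.04% and 2.72% of the counts, from 78.11, 115.51 and 82.99 counts. The deposited posterior SD of these counts was 19.18, 17.05 and 16.48, and the TPM intervals of the form overlapped between the libraries. It is 911 bases long, and 71 of these lie outside the exons of Ikzf1-203. Only 70 of its 862 windows of 50 bases (8.12%) are unique to it. Ikzf1-205 and Ikzf1-206, whose coding sequences are incomplete in the annotation and reach no finger, took 4.82% ± 1.63 and 2.45% ± 2.12 of TPM. The 3 annotated forms that skip the finger 1 exon, Ikzf1-201, Ikzf1-202 and Ikzf1-205, summed to 13.79, 20.32 and 13.53 TPM, which was 18.5% ± 4.90 of TPM and 3.47% ± 1.05 of counts.

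Ikzf1-201, of 428 residues, is the annotated Ikzf1 form that lacks 1 N-terminal finger and keeps the C-terminal pair, and it is named here after its values were seen. It had 0 counts in all 3 libraries. None of its 1493 windows of 50 bases is unique to it, so every read it would give could also be assigned to another form, and the 0 does not show whether it was present. No annotated Ikzf1 form keeps both C-terminal fingers with fewer than 3 N-terminal ones, so the classical dominant-negative forms of Ikaros were not measured by these tables.

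Ikzf3 had 1 coding form. Ikzf3-201, of 507 residues and all fingers, was at 74.73, 79.19 and 72.43 TPM, or 70.4%, 69.0% and 62.5% of the gene, and 85.9% ± 1.98 of its counts. Ikzf3-202, a transcript of 863 bases annotated as not coding, was at 18.74, 21.71 and 27.34 TPM, or 17.7%, 18.9% and 23.6%. Ikzf3-202 was highest and Ikzf3-201 lowest in library 3. Ikzf3-202 overlaps the exons of Ikzf3-201 over part of its length, with 578 of its bases (67.0%) outside them, and 70.9% of its windows are unique. Ikzf3-204, of 670 bases and also annotated as not coding, took 8.68% ± 1.86 of TPM. No short coding form of Ikzf3 is annotated, and its share of coding TPM from forms lacking fingers was therefore 0 by construction.

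Ikzf5 was led by Ikzf5-201, which carries all 5 fingers in 419 residues. It was at 20.19, 23.22 and 18.83 TPM, or 82.3%, 67.6% and 57.4% of the gene, so its share was highest in library 1 and lowest in library 3. The form Ikzf5-202, of 266 residues, keeps finger 1 and both C-terminal fingers and lacks fingers 2 and 3. It had 0, 77.47 and 50.09 counts, with a deposited posterior SD of 9.41, 32.4 and 25.9, and 0, 4.01 and 2.61 TPM. Among the family's annotated forms with the C-terminal pair and fewer N-terminal fingers, it had the most counts. Only 47 of its 2182 windows (2.15%) are unique to it, and it was listed at 0 in library 1.

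The other Ikzf5 forms without all fingers also had uneven values over the libraries. Ikzf5-203, of 107 residues with finger 1 alone, was at 0.45, 0.88 and 3.48 TPM, highest in library 3. The incompletely annotated Ikzf5-204, Ikzf5-205 and Ikzf5-206 took 4.82% ± 6.16, 6.69% ± 9.35 and 3.09% ± 3.98 of TPM. For Ikzf5-205 this was 23.13 counts in library 2 against 2.89 in library 1 and 0 in library 3. Complete forms lacking fingers made up 2.18%, 17.4% and 24.4% of the TPM of complete coding forms of Ikzf5 (14.7% ± 11.4), and 5.87% ± 4.79 of their counts.

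Ikzf5 shares its 3′ end with another gene. Pstk, a kinase of selenocysteine tRNA synthesis, runs on the opposite strand and overlaps Ikzf5 over 5831 bases, at chr7:131388652-131394482. Pstk was at 20.59, 36.56 and 26.99 TPM, 0.839, 1.06 and 0.822 times the Ikzf5 level. The strand setting of the counting is not given in the sources used here, so reads of the 2 genes in the overlap may not have been told apart, and both levels are uncertain. Over all genes the second gene table held 5110680, 4812984 and 4579836 counts in libraries 1, 2 and 3, and the first 16251564, 14878641 and 14152590. For Ikzf5 the second table held 10.1% ± 0.432 as many counts as the first, against 30.4% ± 0.862 for Ikzf1 and 28.1% ± 1.10 for Ikzf3. For Ikzf2, which has no overlapping gene at 1 TPM or more, this share was 9.60%, 16.3% and 20.8% (15.5% ± 5.62), in library 1 as low as for Ikzf5. In that table Ikzf5 was at 17.2, 22.0 and 19.7 CPM. Within Ikzf1, the antisense gene Gm12000 was at 4.31 ± 0.405 TPM, and every other gene overlapping a member had a mean of at most 0.9 TPM.

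Ikzf2 was split between a coding transcript and a retained intron. Ikzf2-201, of 526 residues and all 6 fingers, was at 1.76, 1.84 and 1.53 TPM, nearly level over the libraries. Ikzf2-205, annotated as a retained intron, was at 1.82, 3.16 and 2.78 TPM, or 48.9%, 54.6% and 48.2% of the gene. Library 1 was the lowest for Ikzf2-205 and not for Ikzf2-201. Of the 1905 bases of Ikzf2-205, 91.9% lie outside the exons of Ikzf2-201, and it took 21.6% ± 3.98 of the Ikzf2 counts against 71.9% ± 8.80 for Ikzf2-201. Only 46 of the 1856 windows of Ikzf2-205 (2.48%) are unique to it, and by posterior mean TPM it took 36.2% ± 3.84 of the gene. Ikzf2-203, also annotated as a retained intron, overlaps it and was listed at 0 counts, so the assignment between them is uncertain.

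Forms of Ikzf2 that lack fingers were near the limit of detection. Ikzf2-202, which keeps 5 fingers without finger 1, had 2.81, 10.67 and 5.51 counts. Ikzf2-204, which has lost fingers 1 and 4, had 0, 2.08 and 7.90 counts. The forms with a shortened finger 1 exon (Ikzf2-202, Ikzf2-204 and Ikzf2-208) summed to 2.81, 12.75 and 13.41 counts, or 3.76%, 13.6% and 17.3% of TPM, lowest in library 1. Ikzf2-209, whose N-terminal cluster is reduced to finger 4 and which keeps the C-terminal pair, is the Helios form closest to a dominant-negative structure and is named after its values were seen. It had 0 counts in every library, with a deposited posterior SD of 1.00, 2.50 and 3.28 counts. Only 49 of its 1097 windows (4.47%) are unique to it, and by posterior mean TPM it took 4.99% ± 1.91 of the gene, so the 0 does not show whether it was present.

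Ikzf4 was too low for its forms to be compared. Ikzf4-208, a target of nonsense-mediated decay in the annotation, took 60.8%, 50% and 65.4% of the TPM, from 21.10, 4.93 and 10.14 counts. Ikzf4-201, with all 6 fingers, took 6.86%, 50% and 34.6%, from 3.75, 7.07 and 7.86 counts. Ikzf4-204, also with all fingers, had 6.86 counts in library 1 and 0 in the others. Ikzf4-203, which lacks finger 6 and is named after its values were seen, had 0 counts throughout. At this depth 3 counts are 9.38%, 25.0% and 16.7% of all Ikzf4 counts in libraries 1, 2 and 3, so small shares of its forms are imprecise.

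**Figure D4:**
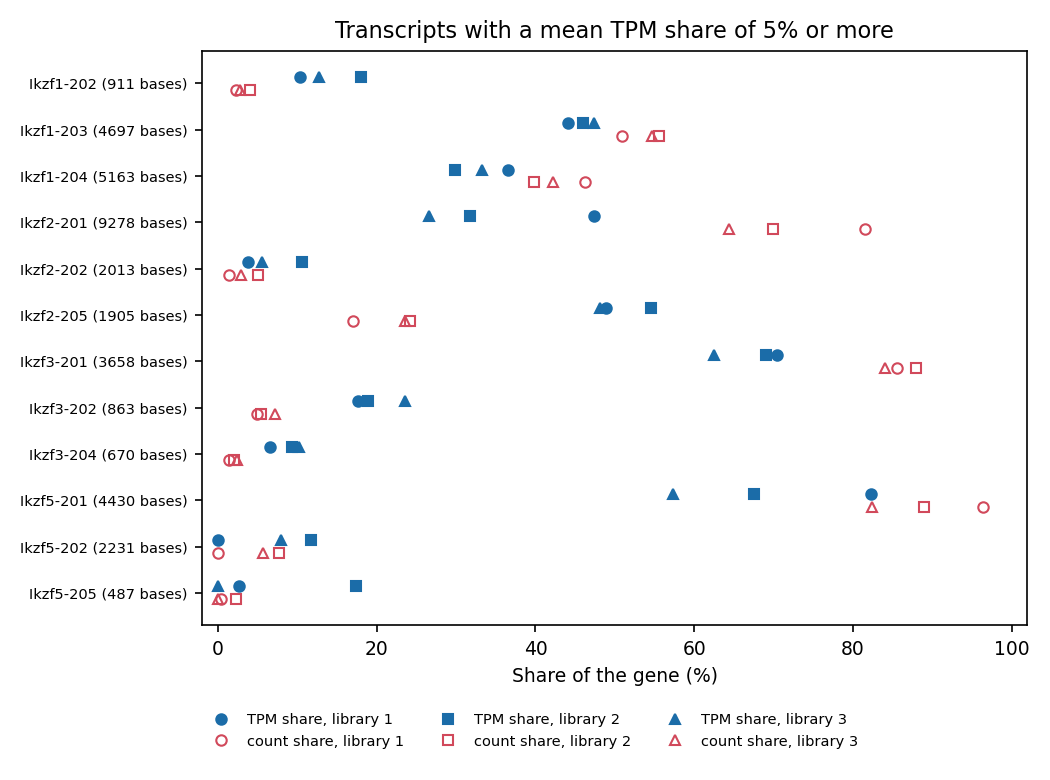
Share of the gene's TPM (filled blue) and of its estimated counts (open red), in percent, for each transcript with a mean TPM share of 5% or more, with 1 symbol per library (n = 3) and Ikzf4 left out for its few counts. Short transcripts lie further right in TPM than in counts, as Ikzf2-205 does at 48.2% to 54.6% of TPM against 17.0% to 24.2% of counts.

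Some annotated forms keep both C-terminal fingers but have fewer N-terminal fingers than the form of their gene with the most fingers. The family has 6 of these: Ikzf1-201, Ikzf2-202, Ikzf2-204, Ikzf2-208, Ikzf2-209 and Ikzf5-202. Over the 3 libraries they had 0, 18.99, 9.98, 0, 0 and 127.56 counts in that order. The family's 2 abundant members, Ikzf3 and Ikzf1, had no counts assigned to forms of this kind. For Ikzf3 none is annotated, and for Ikzf1 the 1 annotated form has no unique window, so neither 0 is a measured absence.

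Whether the libraries differed beyond counting noise was tested for all genes with at least 30 counts, by a chi-square test of homogeneity with Benjamini-Hochberg adjustment at 0.05. It called 7629 of 13949 genes (54.7%) and the median inflation of the statistic over genes was 6.04. Of the members 3 of 5 were called: Ikzf1 (adjusted p = 4.89e-06, chi-square test), Ikzf5 (adjusted p = 0.000591, chi-square test) and Ikzf4 (adjusted p = 0.0376, chi-square test). Ikzf2 (adjusted p = 0.288, chi-square test) and Ikzf3 (adjusted p = 0.946, chi-square test) were not. Ikzf3 had 193 CPM in each of the 3 libraries, a highest-to-lowest ratio of 1.00 where the median of genes tested was 1.26. That median includes genes with as few as 30 counts, which vary more by counting alone than Ikzf3 with 8744. In TPM the ratio was 1.09 for Ikzf3 beside a median of 1.29. After division by the inflation the test called 535 genes (3.84%) and none of the 5 members, whose adjusted p ran from 0.648 to 1.00. None of these calls held under all settings, and the Ikzf1, Ikzf4 and Ikzf5 calls were lost without library 2 (adjusted p = 0.598, 0.261 and 0.129, chi-square test). Without library 1 the Ikzf4 and Ikzf5 calls were lost as well (adjusted p = 0.346 and 0.0799, chi-square test).

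Transcript shares were tested in the same way. A chi-square test of transcripts by libraries, over genes with at least 2 transcripts of 30 counts or more, called 6844 of 8096 genes (84.5%). Among the members it called Ikzf1 (adjusted p = 3.97e-08), Ikzf3 (adjusted p = 3.20e-10) and Ikzf5 (adjusted p = 5.64e-35), 3 of the 4 tested, while Ikzf2 was not called (adjusted p = 0.0696) and Ikzf4 had too few counts. Divided by its median inflation of 10.9, the chi-square test called 1208 genes (14.9%) and, of the members, Ikzf5 alone (adjusted p = 0.0272). The tested transcripts of Ikzf5 included Ikzf5-207, annotated as a retained intron, with 16.86, 5.94 and 74.54 counts in libraries 1, 2 and 3. None of its 2421 windows of 50 bases is unique to it, and it lies within the overlap with Pstk. The Ikzf5 call therefore does not concern the finger forms alone. This test takes assigned counts as known, so its p-values are too small where transcripts share reads. Ikzf5 could not be tested once transcripts with a posterior SD above 10% of their count were left out, since only Ikzf5-201 of its tested forms remained.

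Partners of the family were broadly present. Ikaros family proteins recruit the NuRD complex, which couples nucleosome remodelling to histone deacetylation, and all 13 NuRD genes were at 1 TPM or more, 12 of them at 10 TPM or more and 6 at 100 TPM or more. Their median was 80.7 ± 6.89 TPM, beside 0.70 TPM for all protein-coding genes, of which 47.7% reached 1 TPM, 34.2% reached 10 TPM and 7.82% reached 100 TPM. Mbd2, a methyl-CpG binding subunit, was the highest at 410 ± 35.9 TPM, followed by the histone-binding Rbbp4 at 215 ± 9.89 TPM. Gatad2b was the lowest at 8.46 ± 0.635 TPM.

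Of 10 other corepressor and remodelling genes, 10 reached 1 TPM, 8 reached 10 TPM and 3 reached 100 TPM. Ncor1, a nuclear receptor corepressor, led with 318 ± 36.1 TPM, before Ctbp1, which binds Ikaros outside its fingers, with 209 ± 28.1 TPM. Its paralog Ctbp2 was the lowest with 1.46 ± 0.898 TPM. All 5 genes of the cereblon ubiquitin ligase, through which thalidomide analogues direct Ikaros and Aiolos to degradation in human cells, were at 10 TPM or more. Crbn, the substrate receptor, was at 288 ± 19.2 TPM, Rbx1, the RING subunit, at 214 ± 8.65 TPM and Cul4a, a cullin scaffold, at 18.9 ± 1.11 TPM.

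Of 8 kinase and phosphatase genes known to act on Ikaros, 6 were at 10 TPM or more and 4 at 100 TPM or more. Both highest were catalytic subunits of protein phosphatase 1, Ppp1ca at 656 ± 78.3 TPM and Ppp1cc at 649 ± 49.1 TPM. Btk, a kinase of B cells, was the lowest, at 0.0367 ± 0.0635 TPM from 2 counts.

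Genes reported elsewhere as regulated by Ikaros family factors were divided. Of 24, 14 were at 1 TPM or more, 13 at 10 TPM or more and 8 at 100 TPM or more, with a median of 22.2 ± 2.78 TPM. The highest were Il7r, the interleukin 7 receptor chain, at 823 ± 15.5 TPM and Ifng, the T helper 1 cytokine, at 612 ± 31.4 TPM, and Cd8a was the lowest. No value here ties a partner or a listed gene to a member's level, since there is 1 group. Between libraries the chi-square test with Benjamini-Hochberg adjustment called 11 of 13 NuRD genes, 8 of 10 other corepressors, 4 of 5 ligase genes, 5 of 6 tested kinases and phosphatases and 9 of 15 tested listed genes, beside 54.7% of all genes tested. After division by the inflation these counts were 0, 1, 0, 1 and 2, beside 3.84% of all genes.

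Set among 39 transcription factors of T cells, Ikzf3 ranked 18 and Ikzf1 19, near the middle, with Ikzf5 at rank 29, Ikzf2 at 37 and Ikzf4 at 39, the last. The list ran from Ets1 at 1204 ± 53.6 TPM and Tcf7 at 1138 ± 34.5 TPM down to Ikzf4, with a median of 77.4 ± 4.21 TPM, and 38 of 39 genes reached 1 TPM. The gene nearest in level to Ikzf3 was Zeb1, a repressor of interleukin 2, at 107.63, 123.73 and 115.17 TPM, which overlapped Ikzf3. The nearest to Ikzf1 were Tcf3, an E protein, at 72.87, 81.88 and 76.75 TPM, and Runx3 at 73.6 ± 4.59 TPM, both below Ikzf1 in every library. Myb at 29.5 ± 1.85 TPM and Bach2 at 36.7 ± 2.30 TPM were nearest to Ikzf5 and overlapped it.

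Zeb2, at 5.99, 7.28 and 8.09 TPM, and Eomes, at 3.76, 3.28 and 2.40 TPM, were nearest to Ikzf2. Zeb2 lay above every Ikzf2 value, whereas Eomes in library 1 slightly exceeded Ikzf2 in the same library. Ikzf4 had no close neighbour outside the family: Eomes was the nearest, at a difference of 2.35 on the log2 scale, followed by Zeb2 at 3.53. Nearness was measured as the log2 ratio of mean TPM over the 3 libraries and describes levels only, and members of the family were left out of the search.

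**Figure D5:**
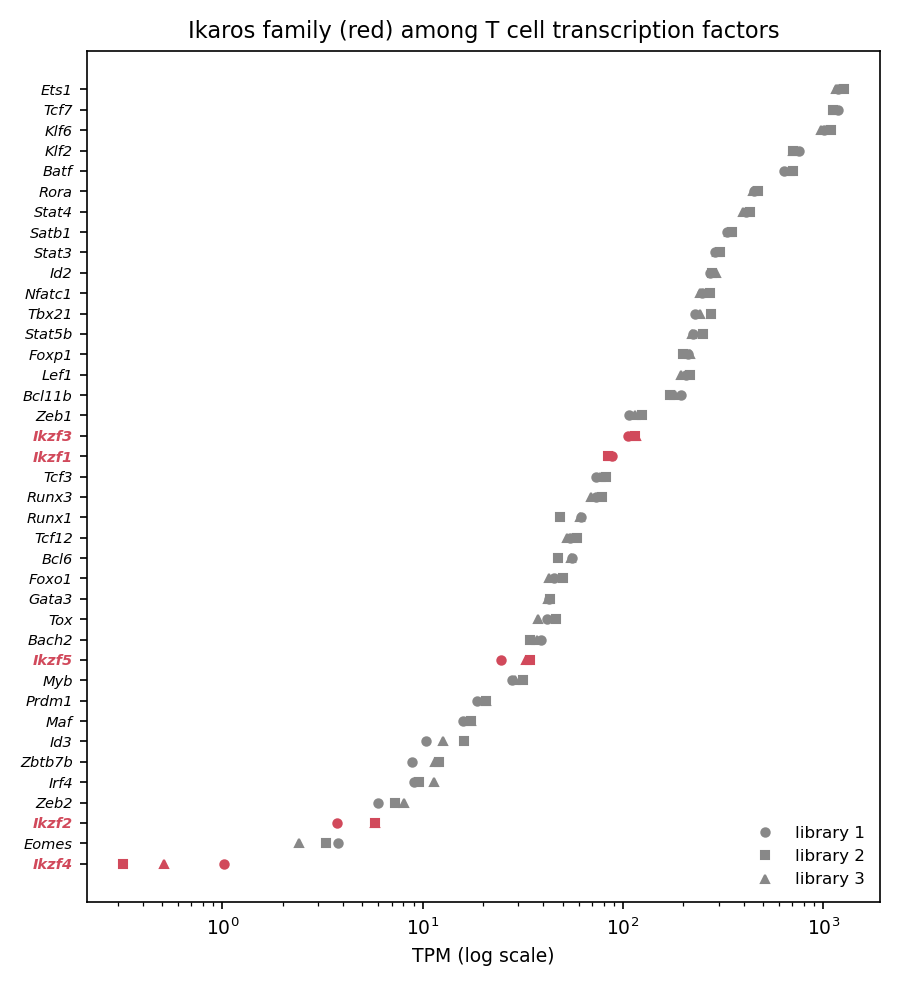
TPM on a log axis for 39 T cell transcription factors, sorted by mean, with 1 symbol per library (n = 3) and the Ikaros family in red. Ikzf3 and Ikzf1 lie side by side at ranks 18 and 19 of 39, and Ikzf4 is the lowest of the list.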

How the data were processed

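PolyA RNA of CD4-positive effector memory T cells from 1 mouse was sequenced in 3 technical replicate libraries, with acoustic shearing per the labels. The sources used here name no cell isolation method, aligner, quantifier, version or strand setting. Per the file headers, the authors deposited estimated counts (each expected count shares out ambiguous reads), TPM, posterior mean TPM, posterior SDs and TPM intervals per gene and transcript, on mm10 with GENCODE M21. A second deposited table holds whole-number counts per gene of GENCODE M4 (22457 genes), made from a separate alignment.

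All 55536 genes matched GENCODE M21, and 22195 rows of the second table did. Coding sequences and exons came from GENCODE M21. Fingers were searched in translated coding sequences, and a window of 50 bases was called unique when no other annotated transcript held it on either strand. Expected counts were rounded and tested over libraries by chi-square with TMM effective sizes (edgeR 4.0.16, R 4.3.3) or DESeq2 1.42.0 size factors as an alternative. Python 3.11.15 with scipy 1.17.1 and pandas 2.3.3 was used. For a gene whose reads are all its own, a library with 0 leaves up to 3 counts possible, equal to 0.185 CPM in library 1, 0.202 in library 2 and 0.212 in library 3, for counting error only. A transcript that shares reads can be assigned 0 with a larger uncertainty, given by its posterior SD.

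The members, gene lists and tests were chosen with earlier results of these data known. The text names all 5 members, transcripts with a mean share of at least 5%, forms lacking fingers of at least 1%, the 2 nearest transcription factors by level, and the 2 highest and the lowest gene of each list. Markers and other genes outside that rule, the transcript Ikzf5-207 and transcripts with 0 counts were named after their values were seen.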

Additional observations from a re-analysis of the deposited data

How the results depend on the processing

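The order Ikzf3, Ikzf1, Ikzf5, Ikzf2, Ikzf4 rests on 3 libraries of 1 mouse, and low counts limit Ikzf4 (62 counts in all) and the short forms of Ikzf2. Without length correction the log2 ratio of Ikzf3 to Ikzf1 turned from 0.38 to -0.11 (CPM of estimated counts) and -0.22 (CPM of the second table). The second table moved the log2 ratio to Ikzf1 of Ikzf2 from -4.11 to -5.00 and of Ikzf5 from -1.51 to -3.34, and posterior mean TPM moved that of Ikzf4 from -7.29 to -5.35.

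As a share of counts the leading transcript took 53.7% in Ikzf1, 21.6% in Ikzf2, 85.9% in Ikzf3 and 89.2% in Ikzf5, instead of 45.8%, 50.6%, 67.3% and 69.1% of TPM. By posterior mean TPM it took 36.2% in Ikzf2 and 13.8% instead of 58.7% in Ikzf4. Over coding forms alone it took 100% in Ikzf3, where 1 coding form is annotated, and this setting gave no value for Ikzf2 and Ikzf4, whose leading transcript is not coding. The share of coding TPM lacking fingers went from 20.95% to 14.7% in Ikzf1 and from 27.6% to 14.7% in Ikzf5 with complete coding sequences only. By posterior mean TPM it went from 23.6% to 47.9% in Ikzf2 and from 0 to 26.8% in Ikzf4. In Ikzf4 the 26.8% came from Ikzf4-203, which had 0 counts in all 3 libraries, so it is not a measured level. The causes of the shifts in the second table and by posterior mean were not tested.

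Of 13949 genes, 7629 differed between libraries. This became 535 after division by the inflation and 2729 in the second table, which differs in alignment, annotation and depth, and 3330 to 5131 with 1 library left out, which leaves fewer samples. For transcript shares, 6844 genes became 1208 after division by the inflation and 1682 of 2939 testable genes without transcripts of uncertain assignment. Of the alternative values, 119 were classed as the same, 20 as moved and 2 as reversed. Values classed as the same kept their direction and side of the threshold or shifted less than those classed as moved. That class is wide: it holds the change from 7629 genes to 5131 without library 3 and to 9467 without a filter. Among single genes, 14 calls were lost and 3 gained. Ikzf2 gained a transcript share call with a minimum of 10 counts (adjusted p = 1.11e-06, chi-square test) and without library 2 (adjusted p = 0.0465), and a gene count call in the second table (adjusted p = 0.0297). No paired analysis was possible because the series holds 1 group.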
